A study of Mus musculus with 6 samples.

Results

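Bidirectional promoters, stretches of open chromatin shared by 2 protein-coding genes that are read in opposite directions, were examined in lung endothelial cells isolated from CSE-KO and WT mice. A region of the deposited accessibility table was kept when its centre lay within 1 kb of the start sites of at least 2 protein-coding genes on opposite strands. The start sites were those that the table itself gives for 12711 protein-coding genes. This kept 142 of 58172 regions, at 121 gene pairs on 20 chromosomes.

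In a bidirectional promoter, polymerases leave in both directions from neighbouring start sites that share a nucleosome-depleted stretch. Such promoters are known in mammals for GC-rich sequence with few TATA boxes, and for housekeeping partners in DNA repair, translation, mitochondria and protein turnover. In endothelium a well-known pair is Col4a1 and Col4a2, the main chains of type IV collagen in the vascular basement membrane.

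ATAC-seq reads open chromatin through the Tn5 transposase, which cuts accessible DNA and adds sequencing adapters to its ends. The 3 CSE-KO libraries come from cells labelled Cre-positive and knocked out for cystathionine gamma-lyase, the cysteine-forming enzyme encoded by Cth. The 3 WT libraries come from cells labelled Cre-negative. Cre and the loss of the enzyme cannot be told apart, and the labels give neither the cells that express Cre nor the animals' age or sex. In such bulk libraries, a change in the share of cells with an open site and a change in openness per cell cannot be told apart either. The labels do not say that the libraries of a group came from separate animals, so the spread behind each p-value is that between these samples and may be technical.

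The deposited values are whole numbers already scaled between libraries, and they sum to 5437296 to 5547417 per CSE-KO library and 5242490 to 5368491 per WT library. The CSE-KO columns skip 35 to 39 of the whole numbers up to 100, which puts 1 read at about 1.53 to 1.63 units and each CSE-KO library at about 3340000 to 3630000 reads in regions. The WT columns skip none. The within-group SD of the log2 values was larger in CSE-KO (0.481 over all tested regions and 0.29 over the bidirectional promoters) than in WT (0.306 and 0.233). At the Cth promoter the values were 11, 6 and 2 in CSE-KO and 195, 157 and 167 in WT, so no library went against its label there. Of 11 endothelial marker genes 9 had a promoter region (none for Pecam1 and Sox17), and their summed values were 1306 to 1445 in CSE-KO and 1180 to 1249 in WT, with 2 of the 9 called higher and 2 called lower. Summed values of mural and fibroblast markers (3 of 7 genes with a promoter region, none for Pdgfra) were 228 to 263 in CSE-KO and 154 to 159 in WT, with 1 called higher. Those of leukocyte markers (2 of 7, none for Ptprc) were 175 to 186 in CSE-KO and 247 to 284 in WT, with 1 called lower, and those of lung epithelial markers (2 of 7, none for Sftpc) were 131 to 189 in CSE-KO and 128 to 164 in WT, with 1 called higher. The part of other cell types in the results was not tested.

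The stretch between the start sites of a head-to-head pair is the DNA that both genes share without transcribing it. The 3 head-to-head pairs with a region that passed the test between CSE-KO and WT are shown first, from RefSeq sequence of GRCm38.p6 (the same assembly as mm10), on the plus strand and between the start sites given in the deposited table. Capitals mark matches, on either strand, to the SP-type GC box GGGCGG, the NF-Y box CCAAT, the TATA box TATAAA, the ETS site CCGGAAGT, the CRE TGACGTCA, the palindromic NRF1 site or the YY1 site.
Snx1/Ciao2a, chr9:66126588-66126610: agcatgcaatgcgcctaacgggc
Dolk/Nup188, chr2:30286335-30286396: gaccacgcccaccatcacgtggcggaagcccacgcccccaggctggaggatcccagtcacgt
Drap1/Bles03, chr19:5424980-5425143: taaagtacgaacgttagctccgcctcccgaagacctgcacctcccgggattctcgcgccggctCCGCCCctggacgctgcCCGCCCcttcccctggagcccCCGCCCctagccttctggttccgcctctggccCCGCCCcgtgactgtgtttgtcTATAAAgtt
Those of Snx1/Ciao2a and Dolk/Nup188 hold none of the 7 motifs, and that of Drap1/Bles03 holds 4 GC boxes and a TATA box. The next stretches belong to pairs whose regions did not pass the test. They are those of Lig4/Abhd13 and Cdc26/Prpf4, the textbook pair Psmb1/Tbp, the little-changed Sqstm1/Mgat4b, a histone pair and the pair richest in NF-Y boxes.
Lig4/Abhd13, chr8:9977687-9977706: acgggctaccgtagcatgaa
Cdc26/Prpf4, chr4:62408643-62408796: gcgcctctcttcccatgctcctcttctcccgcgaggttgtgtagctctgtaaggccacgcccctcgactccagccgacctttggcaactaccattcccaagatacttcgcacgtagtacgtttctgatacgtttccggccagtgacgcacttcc
Psmb1/Tbp, chr17:15499752-15499887: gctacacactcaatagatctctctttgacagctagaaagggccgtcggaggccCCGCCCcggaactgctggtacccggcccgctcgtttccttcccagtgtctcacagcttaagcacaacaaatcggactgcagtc
Sqstm1/Mgat4b, chr11:50210828-50210889: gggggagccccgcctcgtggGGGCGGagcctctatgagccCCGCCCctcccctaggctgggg
H2bc7/H2ac4, chr13:21716144-21716421: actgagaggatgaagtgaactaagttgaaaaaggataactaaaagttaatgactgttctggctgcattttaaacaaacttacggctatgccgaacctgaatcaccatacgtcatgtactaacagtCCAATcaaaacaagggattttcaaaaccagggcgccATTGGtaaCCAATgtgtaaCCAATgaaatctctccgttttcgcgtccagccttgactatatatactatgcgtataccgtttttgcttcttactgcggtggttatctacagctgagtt
Xrcc3/Zfyve21, chr12:111813874-111814169: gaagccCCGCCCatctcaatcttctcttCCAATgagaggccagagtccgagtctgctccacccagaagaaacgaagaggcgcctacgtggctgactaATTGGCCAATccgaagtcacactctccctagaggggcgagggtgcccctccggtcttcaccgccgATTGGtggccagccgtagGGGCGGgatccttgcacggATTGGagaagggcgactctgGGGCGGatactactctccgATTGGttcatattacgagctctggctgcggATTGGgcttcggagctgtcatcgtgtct
Among these 6, Lig4/Abhd13 and Cdc26/Prpf4 hold no listed motif, Psmb1/Tbp holds 1 GC box and Sqstm1/Mgat4b holds 2. H2bc7/H2ac4, a pair of histone genes, has 4 NF-Y boxes, and Xrcc3/Zfyve21 has 7 NF-Y boxes and 3 GC boxes, with 2 NF-Y boxes joined end to end on opposite strands.

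Over the 34 head-to-head stretches of 20 to 296 bp that the RefSeq promoters covered, GC content was 40.3% to 83.3% (median 62.3%). GC boxes were in 17, NF-Y boxes in 5, ETS sites in 2, and a CRE and a TATA box in 1 each. No stretch held the NRF1 or YY1 site, and 12 held none of the 7 motifs. In a second window, from 250 bases before to 50 bases after the RefSeq start, 155 of the 242 paired genes had a RefSeq promoter within 1 kb of the table's start site. These had a median GC content of 61.3%, against 56.3% for all 17492 protein-coding promoters. It was 61.7% for 8231 genes with promoter regions on only 1 strand by the table's start sites, which can include pairs not named there. TATAAA was in 7.1% of the paired genes' promoters, in 6.62% of the one-strand genes' and in 13.3% of all. The ETS letters were in 12.3%, 8.23% and 5.29%, in the same order, and the YY1 letters in 4.52%, 1.62% and 0.972%. GC boxes were in 65.2%, 67.9% and 46.3%, NF-Y boxes in 36.1%, 38.8% and 39.0%, the CRE in 1.29%, 3.41% and 2.34%, and the NRF1 site in 1.94%, 2.17% and 1.32%. The letters of the ETS and YY1 sites were thus more frequent in the paired genes' promoters and those of the CRE less frequent, as a description of few matches (19, 7 and 2 promoters). The windows of close partners overlap, so 1 site can count for both genes. For paired genes the RefSeq start nearest the table's was used, and for the other sets the first one listed per gene.

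The 121 pairs came in 2 arrangements. In 74 pairs the genes stood head to head, with 21 to 1132 bp between the start sites (median 179.5 bp). That distance was at most 150 bp in 33 of them, over 150 and up to 500 bp in 20 and longer in 21. In the other 47 pairs the 5′ ends overlapped, by 21 to 1286 bp (median 361 bp). The regions were 168 to 1782 bp wide (median 677 bp, against 806 bp for one-strand promoters). Of the 142 regions, 76 covered both start sites, 46 covered 1 and 20 lay beside them. The table names 1 gene per region, so a pair was found only where each partner was named in some region. By RefSeq start sites 846 regions met the distance rule, among them 69 of the 142. Start sites lay within 150 bp of each other in 48% of the 846 and in 29.6% of the 142, so the set described here has wider spacing. At the 1 kb limit, the last regions inside were those of Slc26a8/Mapk14 (998 bp from the farther start, log2 change -0.20), Hist1h3b/Hist1h2bb (991 bp, log2 change -0.59) and Tns1/Rufy4 (984 bp, log2 change 0.23), and the first outside were those of Cetn4/Bbs12 (1005 bp, log2 change 1.07), P3h4/Fkbp10 (1015 bp, log2 change -0.12) and Yjefn3/Tssk6 (1018 bp, log2 change -0.18).

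Bidirectional promoters were well-filled regions. Every one of the 142 passed the filter on low values, and 118 had a mean above the median of 51.8 over all tested regions. Their median value was 153, 163 and 158.5 in the 3 CSE-KO libraries and 129, 130 and 135 in the 3 WT libraries, with no overlap between the groups. For one-strand promoters the medians were 167, 173 and 174 in CSE-KO and 155, 153 and 158 in WT, and for regions with no protein-coding start site within 1 kb they were 42, 41 and 41 in CSE-KO and 41, 41 and 40 in WT. The 142 regions held 0.437%, 0.455% and 0.468% of all values in the CSE-KO libraries (mean 0.453% ± 0.0156, SD, n = 3), against 0.427%, 0.436% and 0.432% in the WT libraries (0.432% ± 0.00451, SD, n = 3). The groups did not overlap, but the lowest CSE-KO and the highest WT library nearly touched. As a share of the values in promoters the means lay in the other order, with 1.08% ± 0.0231 in CSE-KO and 1.10% ± 0.0252 in WT (SD, n = 3 each). The groups overlapped there, with 1.07%, 1.07% and 1.11% in CSE-KO and 1.10%, 1.13% and 1.08% in WT.

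Of the 142 regions, 10 passed the test between CSE-KO and WT at a limma adjusted p under 0.05, or 7.04%, against 17.3% of all 58129 tested regions and 6.86% of 11283 one-strand promoters. The share of bidirectional promoters was therefore below that of all regions and near that of one-strand promoters. Accessibility rose in 9 and fell in 1, at 9 gene pairs in all. That is 6.34% higher and 0.704% lower, against 7.7% higher and 9.6% lower of all regions and 4.91% higher and 1.95% lower of one-strand promoters. An unadjusted limma p under 0.05 was reached by 35 of the 142, 28 of them higher in CSE-KO and 7 lower. The matching count over all regions is not given here, and 17.3% of all regions passed even the adjusted test. The count of 10 depended on the fit. It was 33 (26 higher, 7 lower) under limma's trend and robust options, where 15448 of all regions passed. It was 20 (18 higher, 2 lower) of the 138 with a mean of at least 20. That filter also changes which regions the adjustment runs over, and its count over all regions is not given here. The median log2 change, CSE-KO minus WT on log2(value + 1), was 0.20 over the 142 regions, 0.12 over one-strand promoters, -0.06 over regions away from protein-coding starts and 0.00 over all. A log2 change above 0 was found for 105 of the 142 (73.9%), for 63.2% of one-strand promoters and for 49.7% of all regions. The middle of the distribution lay between -0.01 and 0.45 (quartiles). Leaving out a WT library lowered the count of 10 to 3 (replicate 1), 1 (replicate 2) or 2 (replicate 3). It was 13, 9 and 6 without CSE-KO replicates 1, 2 and 3, and the median change stayed between 0.17 and 0.22 in these 6 fits.

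**Figure D1:**
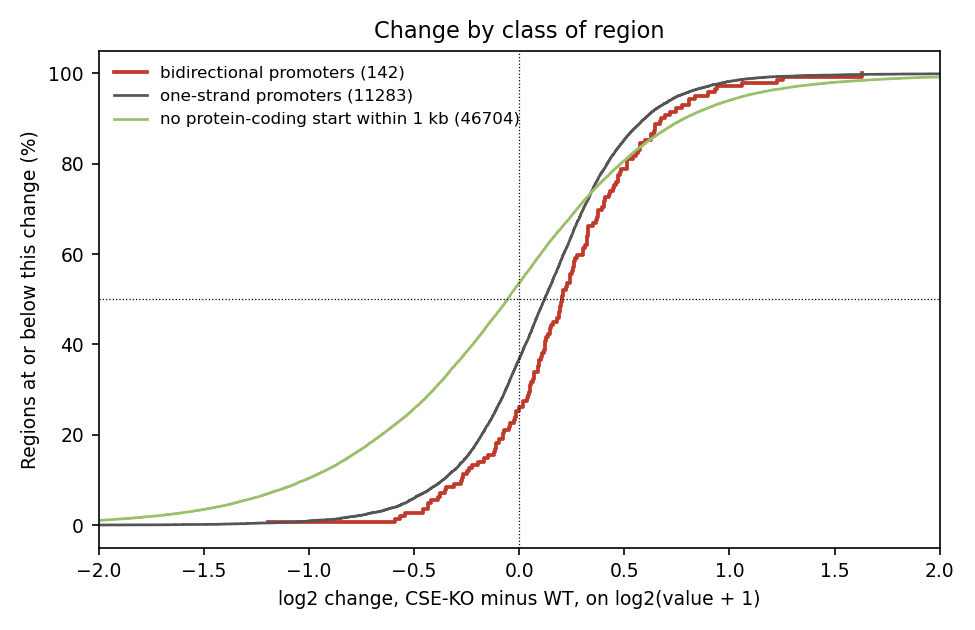
Cumulative share of regions (y axis, percent) at or below each log2 change, CSE-KO minus WT (x axis), for the 142 bidirectional promoters, 11283 one-strand promoters and 46704 regions with no protein-coding start site within 1 kb. The line of bidirectional promoters crosses 50% at 0.20, that of one-strand promoters at 0.12 and that of the other regions at -0.06.

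The largest rise was at Cir1 (ENSMUSG00000041777) and Scrn3 (ENSMUSG00000008226), which encode a corepressor of the Notch pathway factor CBF1 and a secernin. The region at chr2:73313147-73313473 had values of 44, 80 and 84 in CSE-KO and 16, 17 and 33 in WT. Every CSE-KO library was above every WT library, and the means were 69.3 ± 22.0 in CSE-KO and 22.0 ± 9.54 in WT (SD, n = 3 each). The log2 change was 1.63 ± 0.36 (SE), or 3.1-fold, with a limma adjusted p of 0.0241. The region covers neither start site, and its centre lies 609 bp from that of Cir1 and 709 bp from that of Scrn3. It lost the call without WT replicate 1 (adjusted p = 0.0881) or 2 (0.0868) and without CSE-KO replicate 2 (0.0603) or 3 (0.0586).

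Gemin7 (ENSMUSG00000044709) encodes a subunit of the SMN complex, which assembles spliceosomal snRNPs, and Znf296 (ENSMUSG00000011267, Zfp296 in RefSeq) a zinc finger protein. Their region at chr7:19577377-19577789, over the Gemin7 start, had 88, 80 and 97 in CSE-KO and 48, 33 and 32 in WT. The highest WT library was well below the lowest CSE-KO library, and the log2 change was 1.23 ± 0.21 (SE, limma adjusted p = 0.0114). The adjusted p was 0.0517 without WT replicate 2 and 0.0522 without WT replicate 3. Capza1 (ENSMUSG00000070372) encodes a subunit of the actin capping protein, and St7l (ENSMUSG00000045576) is its neighbour on the plus strand. A region of 168 bp at chr3:104863847-104864015, the narrowest of the 142, had 38, 43 and 49 in CSE-KO and 24, 18 and 19 in WT. It covers the St7l start, and its log2 change was 1.06 ± 0.19 (SE, limma adjusted p = 0.0130). That call was lost without WT replicate 2 (adjusted p = 0.0582) or 3 (0.0588).

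Zscan29 (ENSMUSG00000050619), a zinc finger gene of the SCAN family, and Tubgcp4 (ENSMUSG00000027263), a subunit of the gamma-tubulin ring complex that nucleates microtubules, were the only pair with 2 regions past the threshold. The smaller one, chr2:121170038-121170340, lies beside both start sites and had 88, 52 and 59 in CSE-KO and 36, 34 and 30 in WT. The larger one, chr2:121170883-121171637, covers the Zscan29 start and had 243, 201 and 267 in CSE-KO and 150, 146 and 140 in WT. Both were higher in all 3 CSE-KO libraries than in any WT library. The log2 changes were 0.94 ± 0.23 (SE, limma adjusted p = 0.0339) for the smaller region and 0.69 ± 0.17 (SE, adjusted p = 0.0360) for the larger one. Without any single WT library neither region passed (adjusted p 0.0893, 0.0991 and 0.115 for the smaller, and 0.102, 0.110 and 0.119 for the larger, without replicates 1, 2 and 3). Without CSE-KO replicate 3 both were lost too (0.0534 for the smaller and 0.0733 for the larger), and without CSE-KO replicate 1 the larger was (0.0677).

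Snx1 (ENSMUSG00000032382) and Ciao2a (ENSMUSG00000032381) gave the lowest adjusted p of the set. Snx1 is a sorting nexin of the retromer pathway, which returns receptors from endosomes, and Ciao2a belongs to the cytosolic iron-sulfur protein assembly machinery. The region at chr9:66126319-66126906 covers both start sites, which flank the 23 bp printed above. Its values were 160, 164 and 161 in CSE-KO and 80, 82 and 91 in WT, so the libraries of each group lay close together and the groups far apart. The means were 162 ± 2.08 in CSE-KO and 84.3 ± 5.86 in WT (SD, n = 3 each), and the log2 change was 0.93 ± 0.15 (SE, limma adjusted p = 0.0102). It passed in every alternative fit that was run, including each that left out 1 library.

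Prune1 (ENSMUSG00000015711), an exopolyphosphatase, and Mindy1 (ENSMUSG00000038712), a deubiquitinase that trims lysine-48-linked chains, overlap by 731 bp. Their region at chr3:95281269-95281957, over the Mindy1 start, had 189, 176 and 221 in CSE-KO and 99, 106 and 107 in WT. The log2 change was 0.90 ± 0.17 (SE, limma adjusted p = 0.0144), and leaving out WT replicate 1, 2 or 3 gave adjusted p of 0.0628, 0.0578 or 0.0574.

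At Drap1 (ENSMUSG00000024914), whose product represses transcription as part of the TBP-binding NC2 complex, and Bles03 (ENSMUSG00000047423, AI837181 in RefSeq), the region chr19:5424335-5425600 covers both start sites and the GC boxes printed above. It had 225, 306 and 317 in CSE-KO and 147, 158 and 186 in WT, with a log2 change of 0.78 ± 0.20 (SE, limma adjusted p = 0.0402). Every omission of a WT library ended the call (adjusted p 0.133, 0.124 and 0.0827 for replicates 1, 2 and 3), as did that of CSE-KO replicate 2 (0.0856) or 3 (0.0858). Dolk (ENSMUSG00000075419) makes dolichyl phosphate, the lipid carrier of N-glycans, and Nup188 (ENSMUSG00000052533) is a scaffold protein of the nuclear pore. Their region at chr2:30285749-30286834 covers both start sites and had 172, 214 and 231 in CSE-KO and 130, 140 and 114 in WT. The groups did not overlap, and the log2 change was 0.67 ± 0.19 (SE, limma adjusted p = 0.0478). This weakest of the 10 calls was lost without WT replicate 1 (adjusted p = 0.127), 2 (0.103) or 3 (0.155), without CSE-KO replicate 2 (0.0932) or 3 (0.0982), and when libraries were scaled to their totals (0.0572).

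The one fall was at Thoc6 (ENSMUSG00000041319), a subunit of the THO complex that couples transcription to mRNA export, and Hcfc1r1 (ENSMUSG00000023904), which encodes a regulator of the cell cycle coactivator HCF-1. The region chr17:23673470-23673980 covers both start sites, and the 5′ ends overlap by 286 bp. Its values were 74, 58 and 97 in CSE-KO and 160, 195 and 164 in WT, so every CSE-KO library was below every WT library. The means were 76.3 ± 19.6 in CSE-KO and 173 ± 19.2 in WT (SD, n = 3 each), or 0.437 times the WT level after fitting, with a log2 change of -1.20 ± 0.23 (SE, limma adjusted p = 0.0154). Without WT replicate 1, 2 or 3 the adjusted p was 0.0534, 0.0648 or 0.0568.

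**Figure D2:**
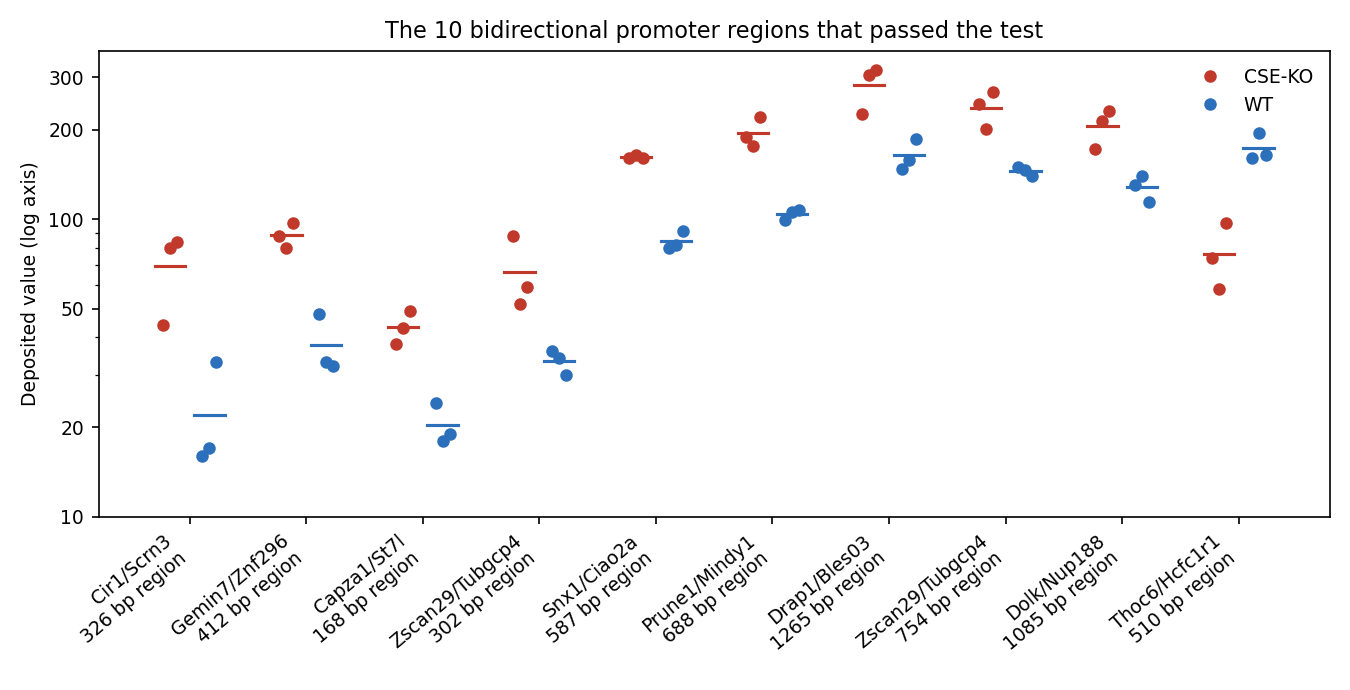
Deposited values (y axis, log scale) in the 3 CSE-KO and 3 WT libraries for the 10 bidirectional promoter regions at a limma adjusted p under 0.05, with bars at the group means. The CSE-KO points lie above the WT points in 9 regions and below them at Thoc6/Hcfc1r1, with no overlap of the groups in any of the 10.

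The CSE-KO and WT values did not overlap in 53 of the 142 regions (37.3%), against 39.5% of all regions and 35.2% of one-strand promoters. CSE-KO was higher in 40 of these (28.2% of the 142) and lower in 13. Over all regions, 19.0% were higher without overlap and 20.5% lower. One-strand promoters leaned the same way as the set, with 2794 of 11283 (24.8%) higher and 1182 lower. Of the 53, 31 of the higher and 12 of the lower did not pass the adjusted test. The nearest of them was Tmem198b/Dnajc14, the second a cochaperone of the endoplasmic reticulum, with 147, 144 and 153 in CSE-KO and 105, 103 and 102 in WT (log2 change 0.51 ± 0.15, SE, limma adjusted p = 0.0540). On the lower side, Pde6d/Cops7b had 291, 265 and 258 in CSE-KO and 439, 377 and 372 in WT (log2 change -0.54, adjusted p = 0.0601). Pde6d carries prenylated proteins and Cops7b is a subunit of the COP9 signalosome. Tomt/Lamtor1, with Lamtor1 an anchor of mTORC1 on the lysosome, had 263, 267 and 272 in CSE-KO and 355, 394 and 354 in WT (log2 change -0.46, adjusted p = 0.0800). Of the 132 regions that did not pass, 108 had a log2 change smaller than 0.5 in size.

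Calls were set against the arrangement of the genes. Of 56 regions at overlapping pairs 6 were higher in CSE-KO and 1 was lower (12.5%), and of 86 at head-to-head pairs 3 were higher and none lower (3.49%, with 17.3% of all regions), a difference that was not tested. The median log2 change was nearly the same, 0.23 at overlapping and 0.20 at head-to-head pairs. By the distance between start sites in either arrangement, regions at up to 150 bp had a median change of 0.31, with 37 of 42 above 0 and 3 past the test. Over 150 and up to 500 bp the median was 0.15 with 42 of 57 above 0 and 6 past the test, and at longer distances it was 0.15 with 26 of 43 above 0 and 1 past the test. Regions that covered no start site had a median change of 0.49 (2 of 20 past the test), those that covered 1 had 0.22 (4 of 46) and those that covered both had 0.18 (4 of 76). Median levels over the 6 libraries rose in the same order, at 47.7, 120 and 205, so coverage and level cannot be told apart here. The differences were not tested.

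**Figure D3:**
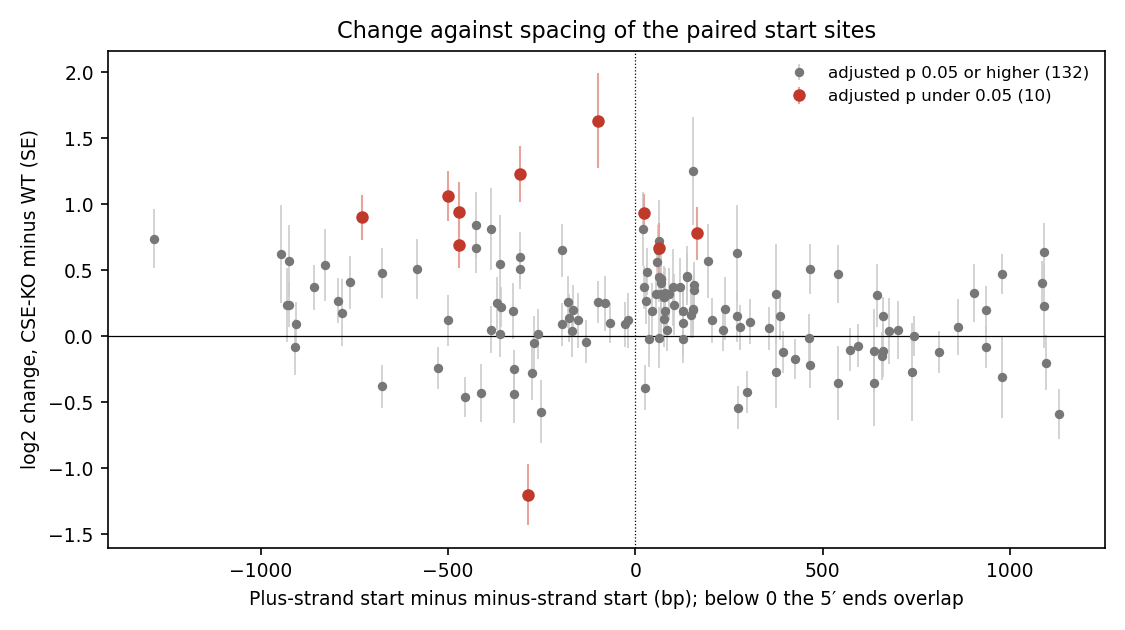
Log2 change, CSE-KO minus WT (y axis, with SE bars), against the plus-strand start minus the minus-strand start in bp (x axis), for the 142 bidirectional promoter regions, where distances below 0 are overlapping 5′ ends. Of the 10 regions at a limma adjusted p under 0.05, 7 lie below 0 on the x axis and 3 above it.

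The median log2 change was larger in weak than in strong promoter regions, for bidirectional and one-strand promoters alike. With promoter regions split at the quartiles of their mean level, the weakest class held 36 bidirectional regions with a median log2 change of 0.32 and 4 past the test (11.1%). One-strand promoters of that class had a median of 0.18 and 9.95% past it. In the next class the bidirectional regions had a median of 0.33 and 3 of 43 past the test (6.98%), against 0.16 and 9.14% for one-strand promoters. In the third the values were 0.09 and 3 of 34 (8.82%) for bidirectional regions, against 0.13 and 5.07%. In the strongest class the medians were 0.05 for both, with 0 of 29 bidirectional regions and 3.29% of one-strand promoters past the test. Bidirectional regions thus had the higher median in the 2 weaker classes, the lower in the third and the same in the strongest, differences that were not tested. Beyond the 142, the 777 regions that are bidirectional by RefSeq starts only had a median of 0.12 and 4.25% past the test. Such regions can be among the one-strand promoters, which were classed by the table's start sites. The 7930 tested one-strand promoters that are also one-strand by RefSeq had a median of 0.11 and 6.6% past the test.

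At 21 pairs the promoter was split into 2 regions, separated by 103 to 543 bp (median 222 bp). The weaker region of a pair had WT means of 16.3 to 77.0 and the stronger one 48.3 to 376. The log2 change was larger in the weaker region at 13 of the 21 pairs, with medians of 0.39 in the weaker and 0.26 in the stronger regions. The weaker region was picked by its WT mean, which also enters the change, so the order and the change are not independent. The gap was widest at Cir1/Scrn3, where the weaker region had a log2 change of 1.63 and the stronger one 0.26. Cdc26/Prpf4 followed, with 1.25 in the weaker and 0.20 in the stronger region, and then Capza1/St7l with 1.06 in the weaker and 0.12 in the stronger. Cdc26 is a subunit of the anaphase-promoting complex and Prpf4 of the U4/U6 snRNP. The 154 bp between their start sites, printed above, lie in the stronger region. At Echs1/Paox, Cfap52/Stx8 and Zfyve26/Rad51b the order was the other way, with log2 changes of -0.38, -0.35 and -0.31 in the weaker and 0.48, 0.47 and 0.47 in the stronger regions. The difference between the regions of a pair was not tested.

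**Figure D4:**
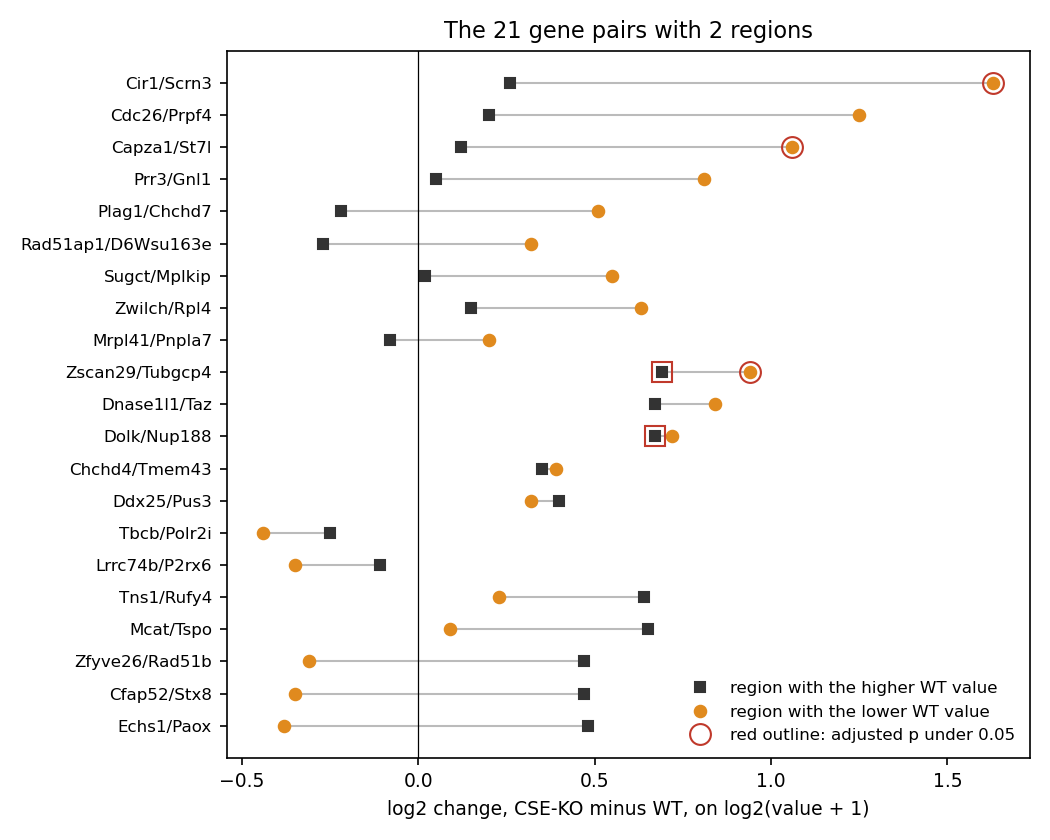
Log2 change, CSE-KO minus WT (x axis), of the region with the higher WT value (square) and the region with the lower WT value (circle) at each of the 21 gene pairs with 2 regions. Red outlines mark a limma adjusted p under 0.05. The circle lies right of the square in 13 pairs, most widely at Cir1/Scrn3. The WT value that separates circle from square also enters the change.

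Grouped by what the paired genes do, none of 11 regions of DNA repair genes passed the test, with a median log2 change of 0.24 and a range of -0.57 to 0.81. With 7.04% of the 142 past the test, and 17.3% of all regions, 0 calls in a list of 11 or fewer regions say little about that list, here and in the lists that follow. Lig4, the ligase of non-homologous end joining, shares with Abhd13 a region of 87, 110 and 177 in CSE-KO and 59, 72 and 73 in WT (log2 change 0.81 ± 0.28, SE, limma adjusted p = 0.0867). The CSE-KO libraries spread widely there but lay above every WT library. Rad51b, a gene of homologous recombination, and Zfyve26 had 178, 172 and 182 in CSE-KO and 132, 131 and 120 in WT in their stronger region, which covers the Zfyve26 start only (log2 change 0.47, adjusted p = 0.0726). The region over the Rad51b start had 80, 37 and 79 in CSE-KO and 74, 86 and 71 in WT, with overlapping groups (log2 change -0.31, adjusted p = 0.524). Fancf, of the Fanconi anaemia core complex, gave the lowest change of the list with its neighbour Gas2, with 145, 247 and 154 in CSE-KO and 291, 249 and 250 in WT (log2 change -0.57, adjusted p = 0.142). Xrcc3, also of homologous recombination, whose stretch with 7 NF-Y boxes is printed above, had 301, 331 and 292 in CSE-KO and 456, 398 and 386 in WT with Zfyve21 (log2 change -0.42, adjusted p = 0.115).

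In replication and the cell cycle, 0 of 5 regions passed (median 0.20). The weaker Cdc26/Prpf4 region had 67, 83 and 128 in CSE-KO and 53, 47 and 20 in WT (log2 change 1.25 ± 0.41, SE, limma adjusted p = 0.0751). The groups were separate but each was spread widely. Cenpj, a centriole protein, and Parp4 had 103, 135 and 108 in CSE-KO and 51, 87 and 101 in WT (adjusted p = 0.193). The 3 regions of histone gene pairs had log2 changes of -0.59 to 0.07 and none passed. The lowest was between the H3 and H2B genes Hist1h3b/Hist1h2bb, with 165, 241 and 203 in CSE-KO and 316, 318 and 275 in WT (adjusted p = 0.0786). The table gives the symbol Hist1h3b to several gene IDs.

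No region of the translation and mitochondrial lists passed the test. Over 6 regions of mitochondrial ribosomal protein genes the median log2 change was 0.09, from -0.39 at Mrpl54/Apba3 to 0.51 at Tmem63b/Mrpl14 (limma adjusted p = 0.155 and 0.162). Over 4 regions of cytosolic ribosomal protein genes it was 0.29, from -0.28 at Rpl35/Arpc5l to 0.63 in the weaker Zwilch/Rpl4 region (adjusted p = 0.376 and 0.269), with Polr3a/Rps24 at 0.43 (0.224) and the stronger Zwilch/Rpl4 region at 0.15. Ndufs6, of respiratory complex I, shares its promoter with Mrpl36 (log2 change 0.09), and Tomm6, of the outer membrane import complex, with Frs3 (0.31). Over 3 regions of a list of tRNA processing and modification genes, among them Caskin2/Tsen54 and Ddx25/Pus3 (0.40 each in their leading regions), the median was 0.40. That list left out Tyw1 and Rpusd4, whose regions did not pass (log2 change 0.32 and 0.65, limma adjusted p = 0.302 and 0.0577). Over 4 regions of a splicing and RNA processing list (Cdc26/Prpf4 and Ddx25/Pus3) it was 0.36, with 0 past the test. Over 5 regions of a polymerase and general transcription list it was -0.01, also with 0 past the test. These lists left out Gemin7 and Drap1, described above, whose regions rose past the test (limma adjusted p = 0.0114 and 0.0402).

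In protein turnover, both proteasome pairs were higher in every CSE-KO library than in any WT library, as were 19.0% of all regions, and neither passed the test. Psmb1, a subunit of the catalytic core, and Tbp, the TATA-binding protein, had 158, 127 and 174 in CSE-KO and 101, 118 and 115 in WT (log2 change 0.45 ± 0.18, SE, limma adjusted p = 0.137). Psmc2, an ATPase of the regulatory particle, and the ribosome-bound chaperone Dnajc2 had 113, 127 and 98 in CSE-KO and 89, 79 and 72 in WT (log2 change 0.49, adjusted p = 0.104). Over 5 chaperone regions the median was 0.24, with 0 past the test. Over 5 regions of a ubiquitin enzyme list, matched by symbol, it was 0.19, also with 0 past the test. That list left out the deubiquitinase Mindy1, whose region rose past the test (log2 change 0.90, limma adjusted p = 0.0144). It also left out Hectd3 and Rnf5, whose regions did not pass. Within the list, Fbxo44/Fbxo2 had a log2 change of 0.46 and the Usp6nl region, shared with ENSMUSG00000118578, one of -0.43. Usp6nl matched by its symbol and is not itself a ubiquitin enzyme, though its region counts among the 5. In vesicle traffic 1 of 5 regions rose (Snx1/Ciao2a, with a list median of 0.04), and in a zinc finger list 1 of 4 (Gemin7/Znf296, with a list median of 0.13), where 7.7% of all regions and 6.34% of the 142 rose. The zinc finger list was matched by symbol and left out Zscan29 and Znf526. Both Zscan29/Tubgcp4 regions rose past the test (log2 change 0.94 and 0.69, limma adjusted p = 0.0339 and 0.0360). Dedd2/Znf526 did not pass (log2 change -0.12, limma adjusted p = 0.626).

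The series title names cystine and histone acetylation, and the gene lists for histone acetylation, for sulfur amino acid and related metabolism and for vessels held 4 regions of the set. Sirt6, a nuclear deacetylase, shares its promoter with Ankrd24, with 173, 188 and 195 in CSE-KO and 178, 181 and 197 in WT (log2 change 0.00 ± 0.15, SE, limma adjusted p = 0.999). The groups covered the same range. Sirt1, its relative, had a weak region with Dnajc12, of 25, 12 and 11 in CSE-KO and 13, 27 and 17 in WT (adjusted p = 0.654). Iscu, the scaffold on which iron-sulfur clusters are built from the sulfur of cysteine, shares its promoter with Sart3, with means of 111 ± 34.5 in CSE-KO, where replicate 3 stood above all other libraries, and 93.7 ± 8.62 in WT (SD, n = 3 each). Its log2 change was 0.21 (limma adjusted p = 0.577). The list left out Ciao2a, described above, whose region with Snx1 rose past the test (log2 change 0.93, limma adjusted p = 0.0102). Col4a1/Col4a2, whose 5′ ends overlap by 21 bp in the table, had 131, 126 and 131 in CSE-KO and 113, 95 and 156 in WT. Those CSE-KO values lay inside the WT range (log2 change 0.12 ± 0.21, SE, adjusted p = 0.727). Of 43 textbook pairs that were looked for, this one and Psmb1/Tbp alone had a region in the set.

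The 4 bidirectional promoters with the highest WT means had log2 changes between -0.07 and 0.05. Those with the next 2 highest WT means, Xrcc3/Zfyve21 (-0.42) and Pde6d/Cops7b (-0.54), were lower in every CSE-KO library than in any WT library, without passing the test. The WT mean used for this ranking also enters the change. Cep170/Sdccag8, which encode centrosomal proteins, had the highest values, 603, 642 and 574 in CSE-KO and 643, 679 and 592 in WT (log2 change -0.07 ± 0.16, SE, limma adjusted p = 0.781). Arhgap17/Lcmt1, a GTPase-activating protein and the methyltransferase of phosphatase PP2A, had 428, 513 and 474 in CSE-KO and 494, 482 and 477 in WT (log2 change -0.04). Shld2/Glud1, a shieldin subunit and mitochondrial glutamate dehydrogenase, had 452, 493 and 445 in CSE-KO and 494, 409 and 442 in WT (log2 change 0.05). In these 3 the groups overlapped. Lnx2/Polr1d, the fourth by WT mean, and Sqstm1/Mgat4b were each at -0.01. Sqstm1, the autophagy receptor p62, and Mgat4b, an N-glycan branching enzyme, had 131, 184 and 118 in CSE-KO and 120, 143 and 171 in WT (adjusted p = 0.971). The WT libraries alone covered 120 to 171 there, so a small change was not detectable at this spread.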

How the data were processed

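ATAC-seq of mouse lung endothelial cells gave 3 CSE-KO and 3 WT libraries, grouped by their titles. The submitters' processing notes list DESeq2 1.26.0, Picard 3.1.1, STAR 2.7.3a and Trimmomatic 0.39 with the build mm10. What each did, how peaks were called and whether reads were shifted for Tn5 is not given in the sources used here. Values per region, as deposited, were handled as a score, being whole numbers with the marks of scaling between libraries followed by rounding (the CSE-KO columns skip whole numbers). A model for counts, foreseen for raw counts, was therefore not run.

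limma 3.58.1 in R 4.3.3 was fitted to log2(value + 1) over 58129 regions whose mean reached 5, with Benjamini-Hochberg adjustment at 0.05 over all of them. On that scale, folds of weak regions are understated. The scripts were tested on simulated data. Start sites came from the table's gene rows, and those of RefSeq (GRCm38.p6) were an alternative added after seeing the data. Of 242 paired genes 184 matched a RefSeq gene, by symbol or by 80% reciprocal overlap on the same strand, and 155 lay within 1 kb of the table's start. The members and lists were chosen with earlier results of these data known, including 18 gene lists and 43 textbook pairs. The lists were matched by gene symbol and leave out some genes of the same function.

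Named regions were every textbook pair, the 10 largest changes in each direction among those past the test with a mean of at least the median of all regions (1 per gene pair), up to 2 of each list by smallest p, the 3 highest in WT, the 3 smallest changes and Cth. Cir1/Scrn3, Capza1/St7l, the smaller Zscan29/Tubgcp4 region, Fancf/Gas2, Xrcc3/Zfyve21, Pde6d/Cops7b, Tomt/Lamtor1, H2bc7/H2ac4, the split pairs without a list and the regions at the 1 kb limit were chosen after their values were seen. Alternatives were other pseudocounts, filters, scalings, limma settings, distances, start sites, left-out libraries and a replicate block.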

Additional observations from a re-analysis of the deposited data

How the results depend on the processing

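The count of 10 bidirectional promoter regions past the test became 20 with a minimum mean of 20, 33 with limma's trend and robust options and 6 with the replicate number as a block, and it was 1 to 13 when single libraries were left out. The count of 10057 over all regions became 15448 with trend and robust and 6013 with the replicate block, and 3519 to 8922 with single libraries left out. The count over all regions with a minimum mean of 20 is not given here. Same-numbered libraries did not deviate together over all tested regions (correlations of -0.00593, -0.0105 and 0.0105). The labels do not say whether the numbers mark pairs, and these correlations cannot settle it. The share past the test was 7.04% in the set, and 3.49% in head-to-head pairs alone. The median change of 0.20 became 0.15 with scaling to library totals and 0.12 with RefSeq start sites. The difference of 0.0218 percentage points in the share of all values became 0.0447 without the regions over 10000 and -0.0203 among promoter values, and it was 0.0145 to 0.0301 with single libraries left out. Scaling to totals put Shld2/Glud1 at -0.01. With single libraries left out, the log2 change ranged from -0.03 to 0.36 at Sart3/Iscu, -0.13 to 0.05 at Lnx2/Polr1d, -0.10 to 0.03 at Arhgap17/Lcmt1, -0.04 to 0.32 at Col4a1/Col4a2, -0.62 to 0.01 at Sirt1/Dnajc12, -0.20 to 0.12 at Sqstm1/Mgat4b, -0.21 to 0.04 at Hist1h2bh/Hist1h3b and -0.01 to 0.12 at Shld2/Glud1. The block also ended the calls at Dolk/Nup188 (adjusted p = 0.0981), Drap1/Bles03 (0.0608) and both Zscan29/Tubgcp4 regions (0.0535 and 0.0824). The causes were not tested. CSE-KO values rest on fewer reads, so their steps limit the weakest regions.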
